A study of Mus musculus with 8 samples.

Results

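G6pdx and Nadk are 2 genes of the cellular supply of NADPH, and their splicing is described here in cultured mouse hepatocytes with and without the splicing regulator SRSF3. They were picked by symbol with their values in these data known, and every entry listed under either symbol was taken. The authors' deposited tables held 638 genes in all, and these 2 accounted for 4 local splicing variations with 12 junction values, and for 3 junction usage events. A local splicing variation is the set of junctions that enter or leave 1 exon, and the share of that set taken by 1 junction, between 0 and 1, is its percent spliced in (PSI).

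The hepatocytes came from C57BL/6J mice whose Srsf3 alleles were both floxed, and they were kept in culture. In the AAV-Cre group, labelled Srsf3-KO, an adeno-associated virus supplied Cre recombinase, which cuts out the floxed part of the gene. The AAV-GFP group, labelled Srsf3-flox, carried the same floxed alleles and received a virus for green fluorescent protein. Infection lasted 48 h in both groups, and 4 stranded mRNA libraries were made per group and sequenced as paired ends. The labels give neither the age of the mice nor whether the libraries of a group came from separate animals, so the deposited p-values could reflect technical variation alone. The deposited values are 1 per group or 1 per comparison, so the spread between libraries and their depth are unknown, no SD is given, and no test was run on the members.

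NADPH is the reducing agent that cells spend on fatty acid and cholesterol synthesis and on the reduction of glutathione, all of which are prominent in liver. The product of mouse G6pdx works in the pentose phosphate pathway and yields NADPH in the cytosol. NADK, the cytosolic NAD kinase, makes NADP from NAD and so sets the pool from which NADPH is formed. SRSF3 is an SR protein that binds pre-mRNA and influences which exons are joined.

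The libraries carried the splicing mark of the Cre treatment. Srsf3 exons 1 and 2 were joined (chr17:29032786-29036241, mm10) at a PSI of 0.157 in AAV-Cre and 0.998 in AAV-GFP in the authors' deposited table. In that set of junctions leaving exon 1, the joins that pass over exon 2 had 0.767 (to 29040775) and 0.078 (to 29039454) in AAV-Cre, and 0.001 each in AAV-GFP, in the authors' deposited table. The size depends on the set: among junctions entering the exon at 29039454, the one coming from exon 1 had 0.994 in AAV-Cre and 0.005 in AAV-GFP in the authors' deposited table, and among those entering at 29040775 it had 0.672 in AAV-Cre and 0.001 in AAV-GFP. No single value is therefore taken as the share of Srsf3 left intact. The local variation table listed 862 variations with 6866 junction values in 354 genes, and the usage table listed 498 events in 414 genes. Both hold splicing values only, so the hepatocyte label could not be checked against marker expression. PSI is measured on all cells together, so fewer cells that use a junction and less use of it per cell cannot be told apart.

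Of the 12 junction values of G6pdx and Nadk in the authors' deposited table, 8 differed by at least 0.2 between the groups. Of all listed junction values, 22.3% did so, and outside dense windows (100 kb with 8 or more listed variations, none of which holds either gene) 54.1% did so. The 2 genes were chosen on these values and the table lists variations that changed, so nothing is read from that count. Nadk held 6 of the 8, in 3 variations, and G6pdx held 2, in 1 variation.

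The sequence of exon 10 of Nadk is shown because the largest change in that gene was the skipping of this exon. It lies at chr4:155587861-155588018 (mm10, plus strand), is 158 nt long and is coding throughout (bases from the GENCODE vM21 transcript). Capitals mark tetramers of the sense strand that begin and end with C and have A or T at both inner places, such as CAAC, a kind of motif that binding studies have tied to SRSF3.

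Nadk exon 10: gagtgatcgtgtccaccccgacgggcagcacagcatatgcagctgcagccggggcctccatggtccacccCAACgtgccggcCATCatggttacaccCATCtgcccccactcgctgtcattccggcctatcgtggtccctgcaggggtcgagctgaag

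The exon held 3 such tetramers, of which 1 was CAAC and 2 were CATC. The comparison set was 673 internal coding exons of the same length, with 1 chromosome left out and exon 10 itself counted. Of these, 95.5% held at least 1 and 62.9% held at least 3, with a median of 3. The GC content of exon 10 was 64.6%, against a median of 52.5% in those exons. The tetramer count of exon 10 thus equalled the median for its length, and its GC content was above the median.

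Nadk (ENSMUSG00000029063.16, chr4:155562378-155591001, plus strand) has 12 exons in the transcript Nadk-201 and encodes 439 codons. Exon 10 had lower inclusion in AAV-Cre at both of its junctions, and was almost always included in AAV-GFP. Among the junctions that leave exon 9 (chr4:155587685-155587784), the one to exon 10 had a PSI of 0.457 in AAV-Cre and 0.988 in AAV-GFP in the authors' deposited table, a change of -0.53. The junction from exon 9 to exon 11 had 0.543 in AAV-Cre and 0.012 in AAV-GFP in the same authors' deposited table.

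Exon 11 (chr4:155588610-155588692) gave a second reading of the same exon. Of the junctions that enter it, the one from exon 10 had a PSI of 0.512 in AAV-Cre and 0.992 in AAV-GFP in the authors' deposited table, a change of -0.475. The one from exon 9 had 0.488 in AAV-Cre and 0.008 in AAV-GFP there. Both variations put the skipping junction near the level of the inclusion junctions in AAV-Cre and close to 0 in AAV-GFP. The 9 to 11 junction is annotated in GENCODE, in the transcript Nadk-208, which is classed as a processed transcript with no coding sequence.

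Junction usage, computed by another method on the same libraries, gave the exon a change of -0.446 in the authors' deposited table, AAV-Cre minus AAV-GFP, with p = 7.54e-07 and q = 0.000646. This was the single Nadk event called at a q of at most 0.05 and a size of at least 0.1, and 11.4% of all listed events met that rule. The usage table gives no PSI per group, so only the difference can be set beside the values above.

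**Figure D1:**
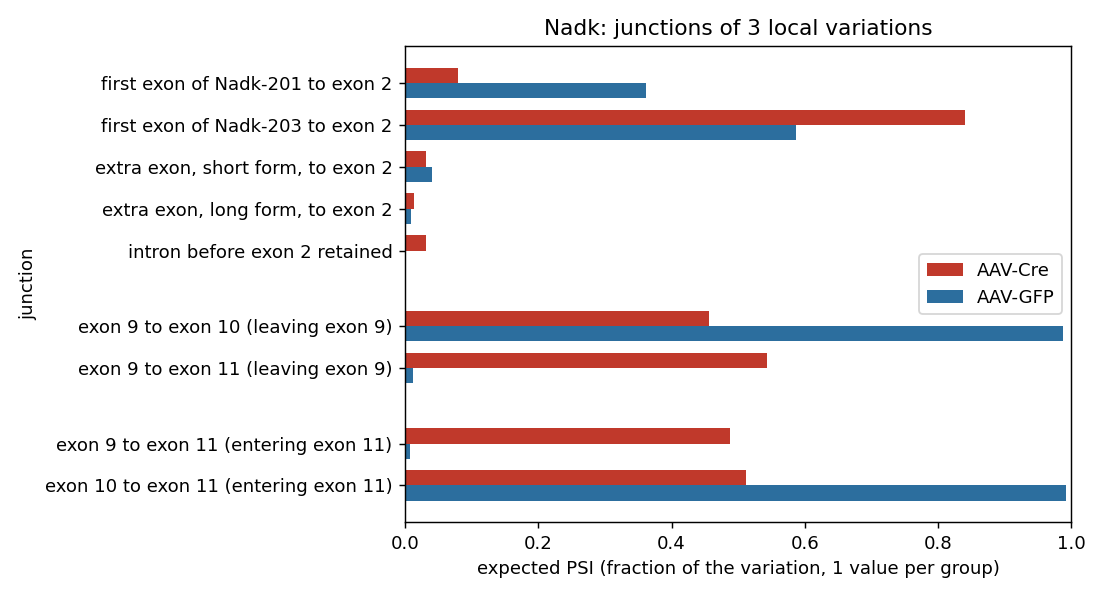
Expected PSI (fraction, x axis) of each Nadk junction in the 3 local variations, with AAV-Cre in red above AAV-GFP in blue and 1 value per group, so there are no error bars. The junctions into and out of exon 10 lie between 0.457 and 0.543 in AAV-Cre where they lie at 0.988 or 0.992 (inclusion) and 0.012 or 0.008 (skipping) in AAV-GFP, and the upper rows show the exchange between the first exons.

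Skipping exon 10 changes the reading frame. Its 158 nt leave a remainder of 2 on division by 3, and 8 of the 9 internal, fully coding exons of Nadk-201 have a length that is not a multiple of 3. In Nadk-201, 931 coding nt come before the exon, which is 310 whole codons (70.6% of the 439) and 1 base of a split codon. Joined to exon 11 without exon 10, the open frame runs for 325 codons in all, of which 15 follow the junction, the split codon included. The first stop then lies at chr4:155588654-155588656, inside exon 11.

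That stop lies 36 nt before the last exon junction, between exons 11 and 12. A stop more than about 50 nt before the last junction is the usual rule for nonsense-mediated decay, and 36 nt falls short of it. Neither table holds RNA levels or protein, so the fate of the shortened transcript was not tested.

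**Figure D2:**
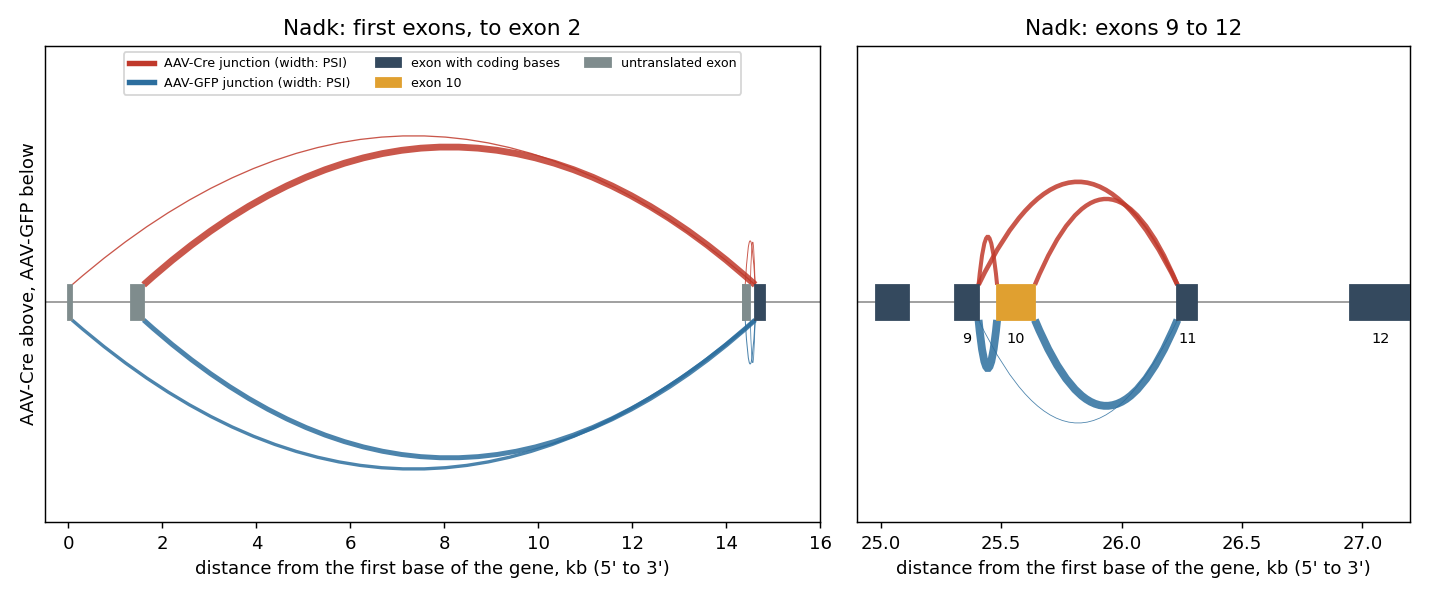
Nadk exons (boxes) drawn to scale against the distance from the first base of the gene in kb, 5' to 3', with the first exons on the left and exons 9 to 12 on the right. Arcs are junctions, with AAV-Cre above the line and AAV-GFP below, and arc width follows PSI. In AAV-Cre the arc that jumps exon 10 is as wide as those that use it, and the arc from the upstream first exon is thin (0.080, against 0.362 in AAV-GFP).

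The first exons of Nadk differed as well. Nadk-201 starts with an exon of 78 nt (chr4:155562378-155562455), and Nadk-203 with one of 280 nt (chr4:155563700-155563979), 1322 nt downstream by their starts. The bases before each first exon are shown because a first exon marks the promoter that was used. They are from the RefSeq promoter table (GRCm38.p6, plus strand) up to the base before the GENCODE exon, and capitals mark a GC box on the opposite strand (GGGCGG when read there).

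Before Nadk-201, chr4:155562131-155562377: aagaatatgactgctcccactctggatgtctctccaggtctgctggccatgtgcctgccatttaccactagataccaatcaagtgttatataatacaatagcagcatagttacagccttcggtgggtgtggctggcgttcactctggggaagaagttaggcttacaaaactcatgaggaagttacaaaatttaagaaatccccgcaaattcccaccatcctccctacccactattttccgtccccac

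Before Nadk-203, chr4:155563565-155563699: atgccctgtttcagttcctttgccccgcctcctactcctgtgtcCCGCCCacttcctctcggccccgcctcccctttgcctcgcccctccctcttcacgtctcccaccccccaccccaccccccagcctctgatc

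These windows differ in composition. The whole RefSeq window of 300 bases at the Nadk-201 start had a GC content of 46.7% and 4 CpG, and that at the Nadk-203 start had 67% and 24 CpG, against medians of 52.7% and 7 CpG over 32851 mouse promoters. Only 247 bases of the Nadk-201 window and 135 of the Nadk-203 window lie before the GENCODE exon. The rest are bases of the first exon, and the RefSeq start of the second window, 155563815, lies inside the Nadk-203 exon. Of the motifs searched on both strands, the Nadk-201 window held neither the TATA box (TATAAA), the E-box (CACGTG), the GC box (GGGCGG) nor the core of the antioxidant response element (TGACNNNGC). The Nadk-203 window held 1 E-box, outside the bases shown, and 1 GC box, motifs present in 7.15% and 35.7% of all promoters. The TATA box occurs in 13.6% of them and the antioxidant response element core in 12.4%. The matches in these windows did not overlap. A match is a description of the letters in the window.

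At exon 2 (chr4:155576993-155577197) the share of the upstream first exon was lower in AAV-Cre. Its junction, from Nadk-201, had a PSI of 0.080 in AAV-Cre and 0.362 in AAV-GFP in the authors' deposited table, a change of -0.284. The junction from the first exon of Nadk-203 had 0.841 in AAV-Cre and 0.587 in AAV-GFP in the authors' deposited table, a change of 0.249. The downstream first exon was the more used one in both groups, and its ratio to the upstream one was 10.5 in AAV-Cre and 1.62 in AAV-GFP, which is 6.48-fold higher in AAV-Cre.

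The other 3 ways into exon 2 were minor. An extra exon that starts at 155576728 was joined from its short form of 55 nt (Nadk-204 and Nadk-206) at a PSI of 0.032 in AAV-Cre and 0.040 in AAV-GFP in the authors' deposited table. Its long form of 163 nt (Nadk-205) was joined at 0.014 in AAV-Cre and 0.009 in AAV-GFP in the authors' deposited table. The intron between that long form and exon 2 was retained at 0.032 in AAV-Cre and 0.001 in AAV-GFP in the authors' deposited table, where the expected change was 0.00168. Together the 3 came to 0.078 in AAV-Cre and 0.050 in AAV-GFP. None of them changed by 0.2.

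The protein encoded is the same from either first exon. The start codon of Nadk-201 and Nadk-203 begins at 155577019 in exon 2, after 26 untranslated nt of that exon, so both first exons are untranslated and both transcripts have 439 codons. The exchange at the 5' end therefore concerns untranslated bases, and the skipping of exon 10 concerns coding bases. Whether both occur in the same transcripts was not tested, since each variation is measured on its own junctions.

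A further start inside the gene appeared in the usage table. Nadk-202 begins with an exon at chr4:155582495-155582648 and joins exon 4, at chr4:155584137, as exon 3 of Nadk-201 does. Among donors joined to exon 4, the changes in the authors' deposited table were -0.252 for the end of exon 3 (155579394), 0.203 for the first exon of Nadk-202 (155582648) and 0.049 for a donor at 155583204 that no GENCODE exon of Nadk ends at. That event had p = 0.000441 and q = 0.0555 in the authors' deposited table and did not pass the threshold of 0.05.

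Nadk-202 encodes 363 codons. Its start codon begins at 155582614, with 35 coding nt in the first exon, where Nadk-201 has 263 coding nt before exon 4. Both enter exon 4 with the same frame, so the protein of Nadk-202 has another start and the same remainder.

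The first exons were also listed in the usage table as a composite event. It joins the positions 155562455, 155563979, 155576726, 155576782 and 155576991, which are the ends of both first exons, the edges of the short extra exon and the start of exon 2 (start positions in this table lie 1 or 2 nt before those of GENCODE). It had 5 changes in the authors' deposited table, -0.402, 0.228, 0.174, -0.0642 and 0.0642, with p = 0.0142 and q = 0.379, so it did not pass. Which value belongs to which junction is not stated for composite events. By size, the negative value of -0.402 is the largest of the 5.

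**Figure D3:**
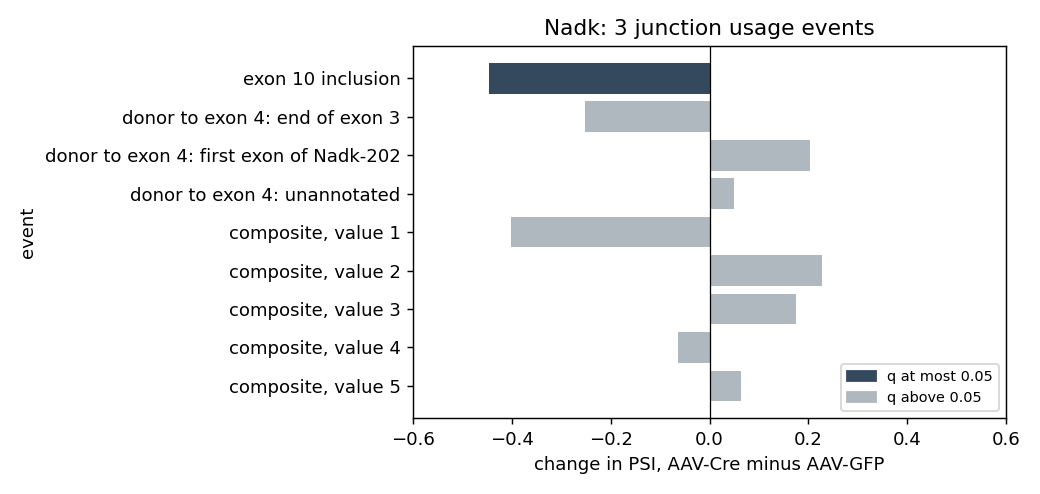
Change in PSI (AAV-Cre minus AAV-GFP, x axis) of each value of the 3 Nadk junction usage events, 1 value per comparison and no error bars. The dark bar (exon 10, -0.446) is the event with q of at most 0.05, and the donor and composite events, in grey, had q = 0.0555 and q = 0.379.

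G6pdx (ENSMUSG00000031400.10, chrX:74409483-74429194, minus strand) has 13 exons and 515 codons in G6pdx-201, and its single variation must be read with the gene on the other strand. Ikbkg, which encodes NEMO, the regulatory subunit of the kinase complex that activates NF-kappaB, spans chrX:74393290-74453854 on the plus strand and so contains the whole of G6pdx. The splice sites are shown because their bases tell on which strand each listed junction has the usual GT at its start and AG at its end. Bases are those of GENCODE vM21 transcripts (mm10), each line is written 5' to 3' on the strand given, and capitals mark the intron bases next to the splice site.

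Exon 2 of G6pdx, donor, minus strand, chrX:74428037-74428066: atcatgggtgcatcgGTgagtctcccttca

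The second junction, lower end, plus strand, chrX:74424696-74424715: agtcacccaagggagGTgag

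The second junction, upper end, plus strand, chrX:74427747-74427776: ttttttttcatccAGgaggaagaagtgcta

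The second junction, upper end, minus strand, chrX:74427747-74427776: tagcacttcttcctcCTggatgaaaaaaaa

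The third junction, lower end, plus strand, chrX:74427860-74427889: gtacatgtatatcagGTactgctgtgatga

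The third junction, upper end, plus strand, chrX:74428112-74428141: caactcttccctcAGgatcccacacacctg

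The first junction joins exon 2 of G6pdx to exon 3 on the minus strand, and the other 2 had GT and AG when read on the plus strand. On the minus strand the second junction would start with CT and end with AC, as would the third. The deposited table gives the minus strand for all 3.

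The junctions leave a listed exon at chrX:74427687-74428207. The junction from exon 2 to exon 3 (74428052 to 74415153), annotated in G6pdx-201, G6pdx-202 and G6pdx-203, had a PSI of 0.816 in AAV-Cre and 0.180 in AAV-GFP in the authors' deposited table, a change of 0.646. The second junction (74427762 to 74424710) had 0.181 in AAV-Cre and 0.809 in AAV-GFP in the authors' deposited table, a change of -0.638. The third (74428127 to 74427874) had 0.003 in AAV-Cre and 0.010 in AAV-GFP in the authors' deposited table. The first 2 thus exchanged places, and the third was close to 0 in both groups.

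The second junction has the ends of an annotated intron of Ikbkg, of 3051 nt, which 1 of the 18 Ikbkg transcripts in GENCODE carries (Ikbkg-209). In 6 Ikbkg transcripts an exon starts at 74427762. The third junction matches no GENCODE intron of either gene, though 2 Ikbkg transcripts have an exon that ends at 74427874. The upper edge of the listed exon, 74428207, lies 28 nt beyond the end of the G6pdx exon at 74428179 and equals the end of an exon in 1 Ikbkg transcript, while its lower edge, 74427687, is that of an exon of G6pdx-204. The PSI of 0.816 in AAV-Cre and 0.180 in AAV-GFP is therefore the share of a G6pdx junction in a set whose other junctions have annotated ends, or splice site bases, of the opposite strand.

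The ratio of the exon 2 to exon 3 junction over the second junction was 4.51 in AAV-Cre and 0.222 in AAV-GFP, 20.3-fold higher in AAV-Cre. More reads of G6pdx, fewer of Ikbkg and a change of splicing within either gene cannot be told apart from these shares. With the junctions that GENCODE gives on the strand of G6pdx alone, 1 junction is left and no change can be measured. The libraries were stranded, per the labels, but the strand setting used for this table is not given in the sources used here, and reads by strand were not analysed here.

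**Figure D4:**
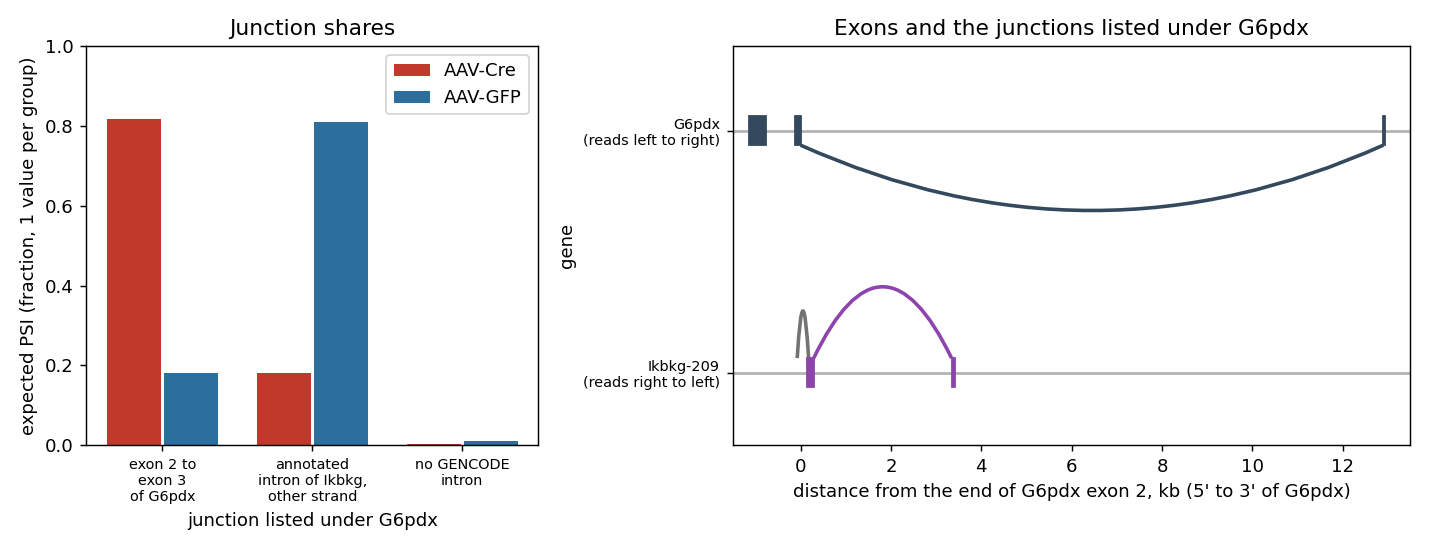
Left, expected PSI (fraction, 1 value per group, no error bars) of the 3 junctions listed under G6pdx, with AAV-Cre in red left of AAV-GFP in blue. Right, exons of G6pdx and of Ikbkg-209 drawn to scale in kb from the end of G6pdx exon 2, with the exon 2 to exon 3 junction in dark blue and the others in purple and grey. The junction with 0.816 in AAV-Cre belongs to G6pdx, and the one with 0.181 in AAV-Cre and 0.809 in AAV-GFP joins exons of Ikbkg-209.

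The annotated G6pdx junction keeps the reading frame. Exon 2 (chrX:74428052-74428179, 128 nt) holds 120 coding nt, 40 whole codons, and exon 3 (chrX:74415116-74415153) has 38 nt, with an intron of 12898 nt between them. Were exon 2 read on into that intron, the first stop would come after 51 codons, with its lowest base at 74428016. The upper end of the second junction lies a further 254 nt on, 290 nt past the end of exon 2. A G6pdx transcript spliced there would meet the stop first. On the minus strand the intron bases at that end are CT and not the usual GT, so no such transcript is inferred.

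No junction usage event was listed for G6pdx. That table takes in events at an unadjusted p under 0.05 only, so whether the exon 2 to exon 3 junction was measured there is not known. Ikbkg had no local variation under its own name and 1 usage event, at the same acceptor. For its donors joined there, the authors' deposited table gave a change of 0.332 for 74424710, the donor of Ikbkg-209, and -0.332 for 74424715, which ends the first exon of 5 other Ikbkg transcripts, with p = 0.0284 and q = 0.526. That event did not pass, and its change is a share among donors of Ikbkg, so it cannot be set against the G6pdx share.

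By size the 2 genes stood in the upper part of the local variation table. With the most changed junction of each gene outside dense windows, the order of 341 genes in the authors' deposited table put G6pdx 17th at 0.646 and Nadk 35th at 0.531, where the median was 0.307. Among 58 variations of 2 junctions with a cassette exon, in 52 genes, exon 10 of Nadk had the 5th lowest change. These ranks use the values the genes were chosen on, and the rank of G6pdx includes the Ikbkg-matching junction in its denominator.

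**Figure D5:**
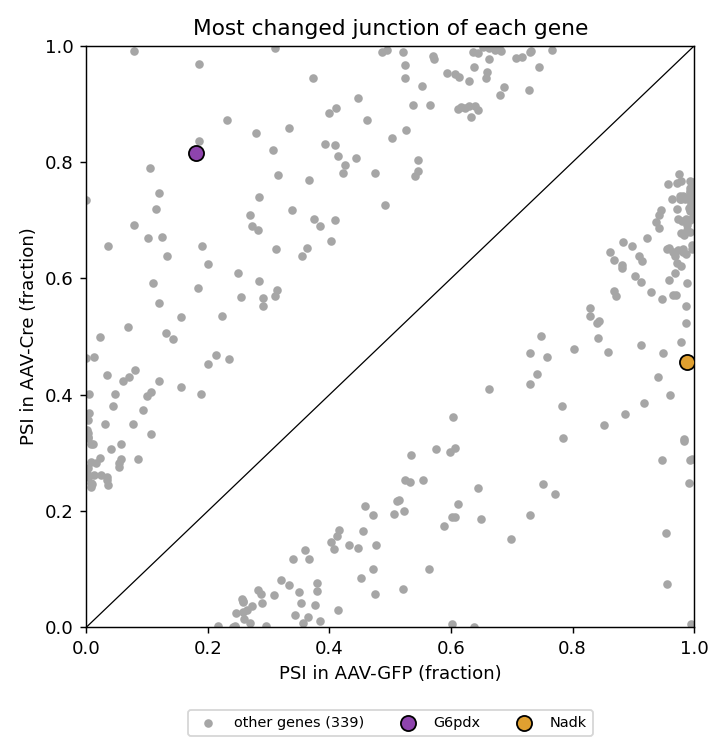
PSI of the most changed junction of each of 341 genes outside dense windows, AAV-Cre on the y axis and AAV-GFP on the x axis, 1 point per gene with no error bars. G6pdx (0.816 in AAV-Cre, 0.180 in AAV-GFP) lies above the line of equality, and Nadk (0.457 in AAV-Cre, 0.988 in AAV-GFP) lies below it.

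The patterns nearest to the members were found by the distance between pairs of group PSI, over the 2 groups. Of 51 other genes with a cassette exon, the closest to exon 10 of Nadk was an exon of 153 nt in Klhdc3, with 0.475 in AAV-Cre and 0.993 in AAV-GFP in the authors' deposited table and a distance of 0.0187. The same exon is listed a second time under the overlapping Gm26904. An exon of 27 nt in Mark3, a protein kinase, came next, with 0.501 in AAV-Cre and 0.978 in AAV-GFP in the authors' deposited table and a distance of 0.0451. The 158 nt exon of Nadk shifts the frame, while these 2 exons have lengths that are multiples of 3.

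Of 340 other genes, the junction nearest to that of G6pdx belonged to Srsf6, an SR protein gene, with 0.837 in AAV-Cre and 0.185 in AAV-GFP in the authors' deposited table and a distance of 0.0216. Cox20, an assembly factor of cytochrome c oxidase, had 0.873 in AAV-Cre and 0.232 in AAV-GFP in the authors' deposited table. That Cox20 value is for a retained intron, not a spliced junction. Cttn, which encodes the actin-binding protein cortactin, had 0.790 in AAV-Cre and 0.104 in AAV-GFP in the authors' deposited table.

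Other genes of NADPH metabolism were looked up by list. Of 25 genes of NADPH supply (the pentose phosphate pathway, NAD kinases, malic enzymes, NADP-linked isocitrate dehydrogenases and folate enzymes), 3 were listed and 2 had a called change, G6pdx and Nadk themselves. The third was H6pd, which works in the endoplasmic reticulum, a composite usage event with q = 0.575 and no finite change in the authors' deposited table. G6pdx and Nadk were both called by local variations, where 100% of listed genes are called. By junction usage 1 of 2 listed supply genes was called, Nadk, where 11.6% of listed genes are called. The G6pdx call rests on the set that holds the Ikbkg-matching junction. None of 16 genes of NAD synthesis was listed. A gene that is not listed may have changed too little or had too few reads, which the tables do not tell apart. The share of all measured genes that is listed is not known, so nothing is read from how many genes of a list appear.

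Of 22 genes that spend NADPH, 4 were listed, all by junction usage, and 1 was called, where 11.6% of listed genes are. It was Gsr, glutathione reductase, for which the authors' deposited table gave 3 donors joined to exon 2, with q = 0.021. The donor at 33653779 (chromosome 8), the end of exon 1 of Gsr-201, changed by 0.135, that at 33652444 by 0.161 and that at 33664824 by -0.296 in the authors' deposited table, and the last 2 end no GENCODE exon of Gsr. By the q-values of the authors' deposited table the other 3 were not called. They were Txnrd1, thioredoxin reductase (largest change -0.139, q = 0.151), Por, the reductase of cytochrome P450 enzymes (-0.0394, q = 0.453), and Blvrb, a biliverdin reductase (-0.0148, q = 0.503, and 0.0433, q = 0.578).

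Of 18 regulators of NADPH genes, 5 were listed and 4 had a called change. All 4 were called by local variations, where 100% of listed genes are called. By junction usage 1 of 4 listed regulators was called, Mlx, where 11.6% of listed genes are called. Mlx, the partner of the glucose-responsive factor ChREBP, had a junction (101087790 to 101088236, chromosome 11) with a PSI of 0.577 in AAV-Cre and 0.929 in AAV-GFP in the authors' deposited table. Its cassette exon changed by -0.509 by junction usage, with q = 0.00444 in the authors' deposited table. Nfe2l1, a stress-responsive transcription factor, had a junction with 0.630 in AAV-Cre and 0.915 in AAV-GFP in the authors' deposited table.

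Sirt2, a cytosolic deacetylase, had a junction with 0.683 in AAV-Cre and 0.283 in AAV-GFP in the authors' deposited table, and a usage change of 0.225 that did not pass (q = 0.638). Ogt, which adds N-acetylglucosamine to proteins, had a junction with 0.624 in AAV-Cre and 0.882 in AAV-GFP in the authors' deposited table, and a usage event that did not pass (q = 0.468). Srebf1, which encodes a transcription factor of lipid synthesis, had an event with q = 0.0438 and no finite change in the authors' deposited table, so it was not called.

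Of 16 genes of glucose uptake and its first steps, 2 were listed and both had a called change. Pkm, pyruvate kinase, had a junction with 0.850 in AAV-Cre and 0.279 in AAV-GFP in the authors' deposited table, and Khk, ketohexokinase, one with 0.890 in AAV-Cre and 0.644 in AAV-GFP. Over all 97 genes of the 5 lists, 14 were listed and 9 had a called change. The 9 include G6pdx, whose call rests on the set with the Ikbkg-matching junction. By local variations 8 of 8 listed genes were called, where the background of listed genes is 100%, and by junction usage 3 of 10 were called (Nadk, Gsr and Mlx), where it is 11.6%. The lists were drawn up with earlier results of these data known, so these counts describe them and do not set them apart.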

How the data were processed

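Stranded mRNA libraries of cultured hepatocytes, 4 per group, went through paired-end sequencing, per the labels' protocols. FastQC, STAR and the build mm10 are named in the submitters' processing notes, with no roles or versions. The first of the authors' deposited tables follows VOILA, which reports MAJIQ output, per the file headers, and gives expected PSI (a fraction) per junction and group. Its change column ran as AAV-GFP minus AAV-Cre (r = 0.996 with that difference of PSI, across junctions, which are not independent) and was reversed here. Its probability column was 0.95 or more for 4155 of 4155 junction values that changed by under 0.02, so no call rests on it. The second was made with JUM at p under 0.05 and gives, per the file headers, p-values, q-values and PSI changes with AAV-GFP subtracted. For neither tool do the sources used here give settings.

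From these, junction values were called changed at 0.2 or more, and usage events at a q of at most 0.05 with a size of at least 0.1. Coordinates were matched to GENCODE vM21 exactly for local variations and within 2 nt for junction usage. Frames and sequences came from vM21 transcripts and the RefSeq promoter table, in which both genes were found. Members and gene lists were chosen with earlier results of these data known. Named are G6pdx and Nadk in full, Srsf3 as a check, pathway genes with a called event, and the 3 nearest patterns per gene. Ikbkg, listed pathway genes with no called event and the opposite-strand examples of the closing section fall outside that rule and were chosen after their values were seen. The listing step was checked on simulated data. Scripts ran in Python 3.11.15 with pandas 2.3.3, numpy 2.4.6, scipy 1.17.1 and, for plots, matplotlib 3.10.9.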

Additional observations from a re-analysis of the deposited data

How the results depend on the processing

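With no values per library, no replicate could be left out and no replicate spread or depth is known, so alternatives were compared by direction and by whether a size threshold was met. No paired analysis was possible because each table holds 1 value per group or comparison. Of 16 alternatives over 5 results, 13 kept the direction and stayed past the threshold or within 1.5 times the count. The alternatives reuse deposited values that were known when members and lists were chosen. The difference of group PSI is almost the same quantity as the deposited change. The count of 13 is therefore not a measure of independent support. The change of exon 10 of Nadk ran from -0.531 to -0.446 over both variations, the difference of group PSI and junction usage. For G6pdx the difference of group PSI gave 0.636, and with only the junctions that GENCODE has on its own strand (chosen after seeing the data) the change was 0, because 1 junction remained. Nadk usage events called were 1 at the thresholds used, 2 at a q of at most 0.1 and 3 at p under 0.05 with no q. The count of 3 was fixed in advance, since the usage table holds only events at p under 0.05. Member junctions changed were 6 at 0.3 or 0.4, 8 at 0.1 and 7 with each junction counted once, against 8. Pathway genes called were 6 with a size of 0.3, 10 with p under 0.05 and 9 without dense windows, against 9. Neither another variation nor a usage event of G6pdx was listed, so those alternatives could not be run.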

Other observations

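Other listed junctions shared the feature seen in G6pdx, and they were counted after the values of G6pdx had been seen. Of 1227 distinct spliced junctions outside dense windows, 792 were in GENCODE on the strand listed and 93 only on the opposite strand. Those 93 include junctions changed by at least 0.2 in 31 of 439 variations and 28 of 341 genes. None of the Nadk junctions was of this kind. By size, G6pdx came second among them, after Gm26904, whose junction at 46679194 to 46680702 (chromosome 17) is an intron of Klhdc3 and had 0.324 in AAV-Cre and 0.984 in AAV-GFP in the authors' deposited table.

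Further examples in the authors' deposited table were a junction listed under Gm15567 that is an intron of Coq8b, a kinase-like protein of coenzyme Q synthesis (0.005 in AAV-Cre and 0.602 in AAV-GFP), and one under Gm43545 that is an intron of Nudt9, an ADP-ribose hydrolase (0.639 in AAV-Cre and 0.132 in AAV-GFP). A junction listed under Hnrnpu is an intron of Cox20 (0.059 in AAV-Cre and 0.502 in AAV-GFP in the authors' deposited table), and one under Fam57b is an intron of Aldoa, the glycolytic aldolase (0.650 in AAV-Cre and 0.312 in AAV-GFP in the authors' deposited table). The strand on which these reads lay was not analysed here.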
